A study of Mus musculus with 18 samples.

Results

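The 18 epidermal RNA libraries fell into 2 kinds by the counts of a pair of transcripts. In 6 libraries the count of Rn7sk, the gene of the small nuclear RNA 7SK, was above the count of Lars2, the nuclear gene of the mitochondrial leucyl-tRNA synthetase. In the other 12 the order was the reverse. The 6 are called 7SK-rich here and the 12 Lars2-rich, and each of the 6 groups of mice held exactly 1 7SK-rich library: K14 OPN UVB 1, K14 OPN noTx 2, OPN KO UVB 16, OPN KO noTx 10, WT UVB 8 and WT noTx 11. The libraries were chosen by these measured counts, so the differences between the kinds below describe the split and are not a test of it.

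All mice were males of 10 weeks. WT mice carried their own osteopontin gene, OPN KO mice lacked osteopontin, and K14 OPN mice carried an osteopontin transgene driven by the keratin 14 promoter, which is active in basal keratinocytes, on the OPN-null background. UVB groups were shaved 48 h before 1 dose of 180 mJ per cm2, and dorsal skin was taken 24 h after it. The noTx groups were not irradiated. The epidermis was scraped off for total RNA, and the labels name the sequenced molecule as polyA RNA for all 18 libraries. They give no batch, kit or date that separates the kinds. Whether each library stands for its own mouse is not stated either, and p-values then measure the spread between libraries, which may be technical. Spp1, the osteopontin gene, stood at 0 to 7.57 CPM (the count of a gene relative to the scaled size of its library) in the 7 OPN KO libraries, 34.5 to 758 CPM in the 6 K14 OPN and 2.53 to 385 CPM in the 5 WT libraries, so the lowest WT library lay within the OPN KO range.

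The 7SK RNA is a transcript of RNA polymerase III that stays in the nucleus and holds the elongation factor P-TEFb inactive. It ends in a run of U and has no poly(A) tail. Most messenger RNAs end in a poly(A) tail that is added behind a hexamer such as AAUAAA. Replication-dependent histone messages end in a stem-loop instead, and small nucleolar RNAs (snoRNAs) and Cajal body RNAs (scaRNAs), which guide chemical modification of other RNAs, are mostly trimmed from introns and carry no tail.

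The sequences below show these ends for genes that stood far apart between the kinds. They are given 5′ to 3′ on the transcript strand of GENCODE M21 (build GRCm38). The first is the last 60 bases of Rn7sk, a single-exon gene outside protein-coding genes (chr9:78175303-78175633, minus strand), with the final run of T in capitals. The stem-loop sites of 3 histone messages on chromosome 13 follow, each 30 bases long, with the match to the histone stem-loop consensus in capitals.
Rn7sk: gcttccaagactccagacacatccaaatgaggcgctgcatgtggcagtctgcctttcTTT
Hist1h3a: aaccaaaGGCTCTTTTCAGAGCCacacacg
Hist1h3e: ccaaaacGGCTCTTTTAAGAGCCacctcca
Hist1h4d: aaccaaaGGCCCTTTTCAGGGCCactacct

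Snord17 is a snoRNA gene inside an intron of a protein-coding gene on the same strand (chr2:144265979-144266216, minus strand). Scarna6 is a scaRNA gene, also intronic (chr1:87784556-87784820, plus strand). Both are shown whole because they were among the 12 named genes with the highest differences. Capitals mark ATGATGA or GTGATGA near the start, the letters of the C box, and the last CTGA, those of the D box.
Snord17: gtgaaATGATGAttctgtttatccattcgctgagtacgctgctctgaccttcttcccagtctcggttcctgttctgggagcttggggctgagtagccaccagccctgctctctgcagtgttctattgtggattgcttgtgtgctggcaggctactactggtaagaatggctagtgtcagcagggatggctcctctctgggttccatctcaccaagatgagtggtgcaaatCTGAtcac
Scarna6: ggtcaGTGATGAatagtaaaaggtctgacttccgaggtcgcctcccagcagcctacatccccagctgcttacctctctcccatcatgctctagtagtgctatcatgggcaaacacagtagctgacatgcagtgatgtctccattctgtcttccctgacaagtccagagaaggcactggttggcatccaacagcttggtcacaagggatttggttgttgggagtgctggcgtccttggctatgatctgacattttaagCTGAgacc

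On the Lars2-rich side stood Bc1 (chr7:144914470-144914637, plus strand), a short rodent RNA of RNA polymerase III that is known from neurons. It lies outside protein-coding genes. Runs of 5 or more A are in capitals, the longest of 23 bases. The poly(A) hexamer sites of H3f3a, which encodes the replication-independent histone H3.3, and of Hmgn5, a nucleosome-binding protein gene, are given with the hexamer in capitals.
Bc1: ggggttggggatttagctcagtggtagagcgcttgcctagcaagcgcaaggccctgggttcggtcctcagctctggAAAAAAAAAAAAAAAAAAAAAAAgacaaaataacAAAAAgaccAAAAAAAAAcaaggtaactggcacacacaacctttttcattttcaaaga
H3f3a: aatttgaaaaatAATAAAagtaccaataga
Hmgn5: tggatttatcatAATAAAagagttccacaa

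Rn7sk took 0.428, 1.55 and 3.23% of gene counts (lowest, median and highest) in the 6 7SK-rich libraries against 0.00311, 0.0153 and 0.0425% in the 12 Lars2-rich ones. Lars2 took 0.00797, 0.0214 and 0.0452% in the 7SK-rich libraries against 1.19, 4.36 and 17.1% in the Lars2-rich ones. The kinds did not overlap for either gene, as the rule requires of their ratio. The ratio of the Rn7sk count to the Lars2 count was 32.1 to 191 in the 6 libraries and 0.000906 to 0.0104 in the 12. Nearest to the threshold of 1 were OPN KO noTx 10 on the inside, at 32.1, and OPN KO UVB 14 on the outside, at 0.0104. No library lay near the threshold. Whether the reads over Lars2 come from the message of the synthetase was not tested.

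The 7SK-rich libraries held 11867140 to 15586958 gene counts and 23413 to 25483 genes with a count, and the Lars2-rich libraries 3696865 to 26068614 gene counts and 12874 to 23859 genes. Across the 18910 genes tested, the correlation of log2 CPM between libraries had a median of 0.902 over the 15 pairs of 7SK-rich libraries, 0.82 over the 66 Lars2-rich pairs and 0.773 over the 72 pairs between the kinds, whatever the group. Keratinocyte genes were present in both kinds, though not all at like levels. Krt5 was not called and stood at 1419 to 3517 CPM in the 7SK-rich and 740.9 to 4502 CPM in the Lars2-rich libraries. Of 10 basal keratinocyte markers, 6 were higher and 2 lower by the fit described next, with Dst (1.63) and Col17a1 (1.62) among the higher and Krt14 (-1.11) among the lower. Of 9 suprabasal markers, 1 was higher and 3 lower, Lor (-2.57) and Krtdap (-1.73) among them. Summed over the list, 11 leukocyte markers stood at 272.3 to 1175 CPM against 115.9 to 8743 CPM, 11 dermal fibroblast markers at 114.6 to 4713 against 56.04 to 4402 CPM, and 14 hair shaft and root sheath markers at 77.98 to 670.5 against 42.99 to 157000 CPM, where WT noTx 10 and K14 OPN noTx 11 led. By the same edgeR fit, 4 of the 11 leukocyte markers were lower, and 0 of the 11 fibroblast and 0 of 4 endothelial markers were called. Lower were also 4 of 5 adipocyte and sebocyte, 2 of 5 melanocyte, 2 of 3 skeletal muscle and 1 of 4 red blood cell genes. Beside these marker lists, 26.2% of all 18910 genes tested were higher and 15.7% lower, and the lists are small. Of the 14 hair markers 7 were lower, with a median of -4.24, and 1 was lower with a median of -0.92 without WT noTx 10, K14 OPN noTx 11 and OPN KO noTx 9. In bulk tissue, fewer cells of a type and less RNA per cell cannot be told apart. The part of these markers in the differences below was not tested.

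In edgeR's quasi-likelihood fit with the 6 group means as terms, 7927 of 18910 genes (41.9%) differed between the kinds at a Benjamini-Hochberg adjusted p under 0.05. Of these, 4955 were higher in the 7SK-rich libraries (26.2% of those tested) and 2972 were lower (15.7%). The levels of the 6 and the 12 libraries did not overlap for 1464 genes higher (7.74%) and 623 genes lower (3.29%). These shares are the background for the counts of the marker lists above and of the classes below. Since the libraries were sorted by their own RNA, nothing further is read from these shares. A gene seen in 1 kind alone can pass the filter on low counts through that kind, so the counts below hold for tested genes only. Scaling by total gene count in place of TMM (trimmed mean of M-values) moved the median log2 difference of all genes from 0.26 to 0.90, left 1078 genes lower and raised the share of calls that were higher from 62.5 to 86.9%. The classes are therefore given beside the median of all genes tested, which was 0.26.

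**Figure D1:**
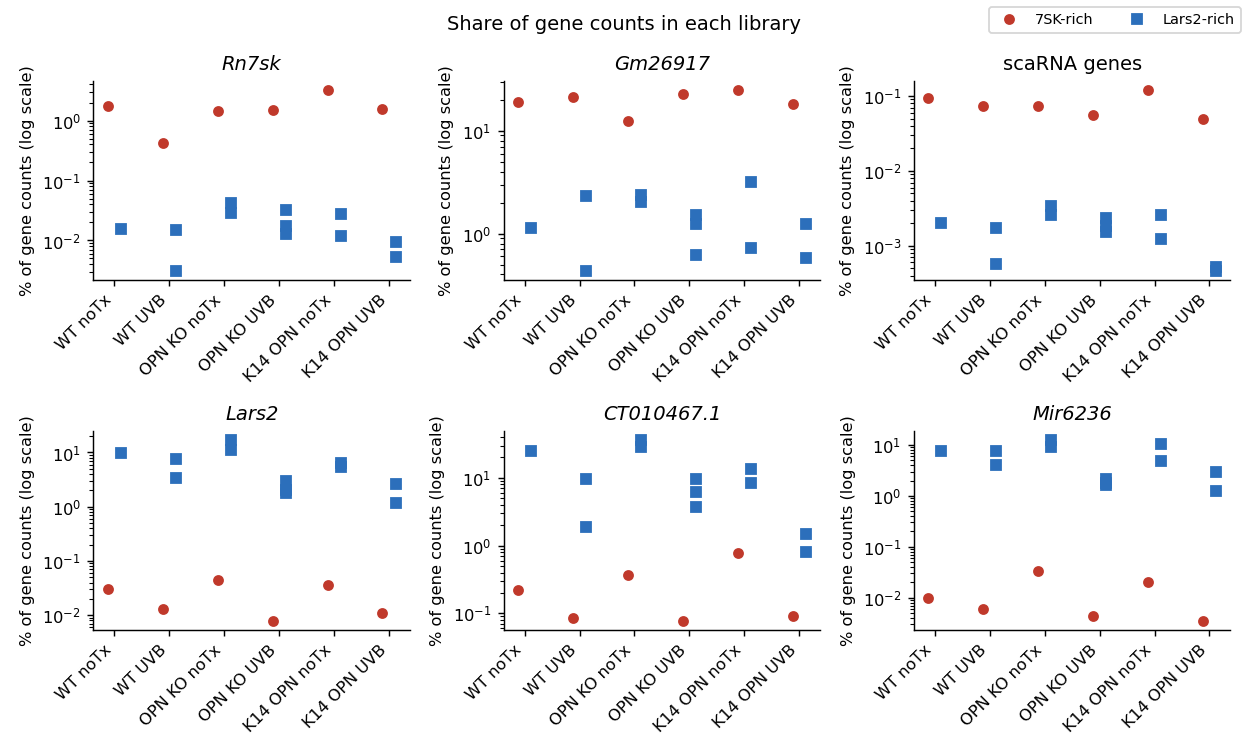
Share of gene counts (% on a log axis) of 5 genes and of all scaRNA genes in each of the 18 libraries, by group, with circles for 7SK-rich and squares for Lars2-rich libraries. In every panel and every group the 1 circle stands apart from the squares, above them for Rn7sk, Gm26917 and scaRNA genes and below them for Lars2, CT010467.1 and Mir6236.

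The gene with the largest share of counts in the 7SK-rich libraries was not Rn7sk. Gm26917, a single-exon gene annotated as a lincRNA (chr17:39843013-39846341, plus strand), took 12.4, 20.2 and 24.9% of gene counts there and 0.434, 1.24 and 3.20% in the Lars2-rich libraries. Its lowest 7SK-rich value was above its highest Lars2-rich value, and its log2 difference was 3.34 ± 0.57 (SE). In the Lars2-rich libraries the largest mean share belonged to its neighbour CT010467.1, annotated as an rRNA (chr17:39846353-39848827, minus strand), with 0.793, 9.03 and 36.5% against 0.0781, 0.157 and 0.785% in the 7SK-rich libraries. The log2 difference of CT010467.1 was -5.99 ± 1.00 (SE). Its shares did not overlap, though its CPM did.

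These genes lie side by side, with 11 bases between them. RefSeq annotates the 18S-related sequence Rn18s-rs5 over CT010467.1, from 39846354 to 39848202 on the same build, and in a complete ribosomal DNA repeat the external transcribed spacer precedes 18S. The last 60 bases of Gm26917 and the 60 bases at the plus-strand start of CT010467.1 (its transcript reads the other way, so the reverse complement is shown) are given to place the boundary, with CG pairs in capitals.
Gm26917: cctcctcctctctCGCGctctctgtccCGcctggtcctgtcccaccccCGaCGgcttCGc
CT010467.1: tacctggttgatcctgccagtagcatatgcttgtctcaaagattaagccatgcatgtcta

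Gm26917 has a GC content of 69.1% and CT010467.1 one of 55.4%. The counts took no account of strand: of 439 genes whose exons are wholly covered by exons of the opposite strand, 4 (0.911%) had any count, against 64.3% of 54791 other genes. Reads of a gene and of an overlapping antisense or intronic gene can therefore not be told apart, and this holds for every antisense and intronic gene below.

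Further features stood high with Lars2. Of 11 genes of the rRNA biotype tested, CT010467.1 among them, 5 were lower in the 7SK-rich libraries and 0 higher. That is 45.5% lower, against 15.7% of all genes tested. Their median log2 difference was -1.95, and the levels of the kinds overlapped for each of them. Mir6236, a gene annotated as a microRNA precursor, took 1.22, 4.396 and 12.6% of gene counts in the Lars2-rich libraries and 0.00355, 0.00795 and 0.0327% in the 7SK-rich ones, a log2 difference of -9.67 ± 0.78 (SE). Gm15564, an antisense gene on chromosome 16, took 0.336 to 4.31% against 0.00223 to 0.0116%. Gm14236, an antisense gene on chromosome 2 (chr2:168010529-168011506, plus strand), had 94574 counts over the 12 Lars2-rich libraries and 2 over the 6 others. Its ratio was 43300 with a 95% counting interval from 12000 to 358000, which covers counting error only. Gm23935, annotated as a microRNA on chromosome 16, took 0.609 to 7.52% against 0.145 to 1.72%, and there the kinds overlapped. Its 57 bases are identical to those of Gm24245 on chromosome 4, so reads within them align to both genes. Reads with several alignments have a summary line of their own, so such reads can be missing from the counts. Lars2, Mir6236, Gm15564 and Gm14236 were not compared with ribosomal RNA sequence, so the origin of their reads was not tested.

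Of the RNAs with known protein partners, 4 of the 5 tested were higher in the 7SK-rich libraries. Vaultrc5, the vault RNA, stood at 4.81, 12.8 and 52.2 CPM against 0, 1.65 and 7.83 CPM, a log2 difference of 3.78 ± 0.65 (SE). Rny1 and Rny3, the Y RNAs that bind Ro60, were 2.89 ± 0.64 and 4.03 ± 0.93 higher on the log2 scale, and Rny3 did not overlap. Rn7s2, a gene of the signal recognition particle RNA, was higher at under 2 CPM. The exception was Bc1, at 0.0708, 0.221 and 0.383 CPM in the 7SK-rich libraries against 39.3, 145 and 588 CPM in the others. Every Lars2-rich library was more than 100-fold above every 7SK-rich one for Bc1, and the fitted log2 difference was -9.33 ± 0.63 (SE).

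All 3 tested genes of the ribozyme biotype (Rprl2, Rprl3 and Gm26464) were higher. Among misc_RNA genes without Rn7sk, the class that also holds the Y RNAs, 30 of the 39 tested were higher and 0 lower by edgeR's fit, with a median log2 difference of 4.31, which was 1.84 without the filter on low counts. Their summed share of gene counts was 0.00641 to 0.0169% in the 7SK-rich against 0.00079 to 0.00207% in the Lars2-rich libraries, without overlap.

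Of 12 scaRNA genes tested, 9 were higher and 0 lower by the same fit, with a median log2 difference of 4.83, or 2.75 without the filter. Scarna2 stood at 202, 232 and 373 CPM in the 7SK-rich libraries against 1.66, 8.74 and 36.3 CPM, a log2 difference of 4.77 ± 0.43 (SE). Scarna6, the sequence shown above, stood at 36.9, 73.6 and 119 CPM against 0, 1.15 and 3.52 CPM, and was 73.4-fold higher in the fit. Summed over the class, scaRNA genes took 0.0487 to 0.12% of gene counts against 0.000464 to 0.00341%. The 2 ranges are more than 10-fold apart.

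Of 85 snoRNA genes tested (of 1507 in the table), 48 were higher and 6 lower, with a median log2 difference of 2.97, or 1.81 without the filter. Snord17 was the highest of them by the naming rule, at 44.2, 166 and 405 CPM against 0.109, 1.19 and 8.55 CPM, a log2 difference of 6.66 ± 0.52 (SE). All 6 of its within-group differences were above 0, from 5.32 to 8.11. An exception was Gm24920, with 0.0494 to 0.199 CPM in the 7SK-rich libraries and 1.77 to 25.7 CPM in the others. By position, 35 of 61 snoRNA genes inside introns on the same strand were higher. So were 8 of 12 over a protein-coding gene on the opposite strand, and 4 of 11 outside protein-coding genes.

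The non-coding genes that host snoRNAs in their introns went the other way. Of 16 host genes tested, 8 were lower and 2 higher, with a median of -1.08. Gas5, a spliced host whose exons code for no protein, stood at 34.0, 39.6 and 49.96 CPM in the 7SK-rich libraries against 81.2, 137 and 205 CPM in the Lars2-rich ones, a log2 difference of -1.78 ± 0.21 (SE). The levels did not overlap. Snhg1, Snhg8 and Zfas1 had log2 differences of -1.96, -2.41 and -1.67.

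Spliceosomal snRNA genes were mixed. Of 53 tested, 23 were higher and 13 lower, with a median of 2.00, or 1.14 without the filter. Gm25360 stood at 23.8, 37.2 and 59.3 CPM against 0, 0.429 and 2.85 CPM. Gm24959 stood at 0, 0.218 and 0.497 CPM against 0.382, 5.31 and 13.5 CPM, the opposite order with overlap. Reads of near-identical snRNA genes can align to several copies, so single members are uncertain.

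MicroRNA genes were mixed as well, and the counts concern reads over precursor genes, not mature microRNAs. Of 70 tested, 35 were higher and 13 lower, with a median of 3.29, or 1.53 without the filter. The 4 members with the highest mean level (Gm23935, Mir6236, Gm24245 and Mir703) were all lower. Of the 37 that lie inside an intron on the same strand, 24 were higher. This compares with 6 of 16 over a protein-coding gene on the opposite strand and 5 of 16 outside protein-coding genes. By symbol, 48 of the 70 matched a mature sequence of RefSeq (GRCm38.p6). That of Mir703, which stood at 2.05, 3.90 and 4.62 CPM against 9.26, 40.1 and 55.2 CPM without overlap, is shown with its seed, bases 2 to 8, in capitals.
Mir703 mature: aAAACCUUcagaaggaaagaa

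**Figure D2:**
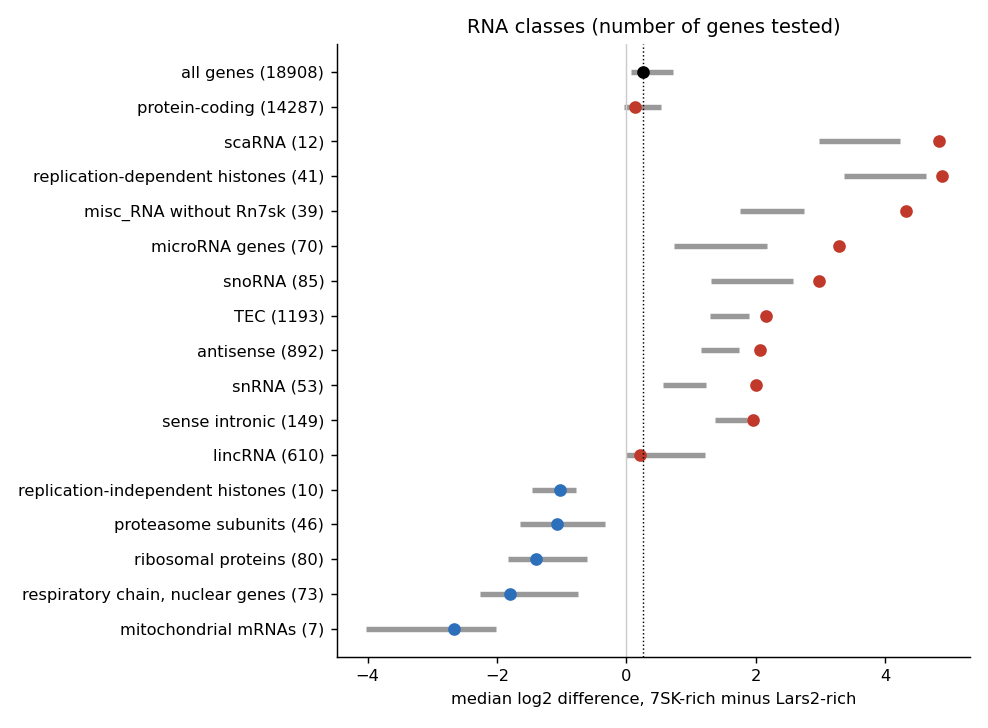
Median log2 difference between the kinds for each RNA class (points, from the fit, with the number of genes tested in parentheses) and the range of the medians of the 6 within-group differences (grey bars, from log2 CPM with a prior count of 2, which draws genes with low counts towards 0). The dotted line is the median of all genes, 0.26, with Rn7sk and Lars2 left out. Replication-dependent histone, scaRNA and misc_RNA classes have medians above 4. The replication-independent histone, proteasome, ribosomal, respiratory chain and mitochondrial messages have medians under -1.

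Replication-dependent and replication-independent histone genes had medians of opposite sign. Of 41 replication-dependent histone genes tested (of 67 in the table), 34 were higher in the 7SK-rich libraries, 2 were lower, and 25 of the higher ones did not overlap, with a median log2 difference of 4.87. In log2 CPM, which draws low counts towards 0, the 6 within-group medians ran from 3.36 to 4.63. Hist1h1e, a linker histone, stood at 30.5, 41.5 and 58.7 CPM against 0, 0.743 and 5.70 CPM, a log2 difference of 5.40 ± 0.52 (SE). It overlaps a protein-coding gene on the same strand. Hist1h4d stood at 27.2, 30.4 and 40.9 CPM against 0, 1.56 and 2.55 CPM. Hist1h3a had 622 counts over the 6 7SK-rich libraries and 3 over the 12 others, a ratio of 226 with a 95% counting interval from 77.0 to 1100. Histone genes of a cluster are near-copies, so reads that align to several of them can be missing from their counts.

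Of the 12 genes with the highest differences under the naming rule, 10 were replication-dependent histones: Hist1h3a, Hist1h3e, Hist1h1b, Hist1h4f, Hist2h4, Hist1h1a, Hist1h4b, Hist1h1e, Hist1h4k and Hist1h3c. Their fitted differences ran from 5.36 (Hist1h3c) to 8.18 (Hist1h3a) on the log2 scale, and in each of the 6 groups the 7SK-rich library was the higher one. The other 2 were Snord17 and Scarna6.

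The ends of the transcripts differed among these histones. The stem-loop consensus matched, on the transcript strand, a transcript of 30 of the 41 genes (73.2%) and the longest transcript of 4 of 14241 other protein-coding genes (0.0281%). Of the 30 with a match 25 were higher, and of the 11 without 9. The hexamer AATAAA or ATTAAA stood in the last 50 bases of the longest transcript of 11 of the 41, with a median difference of 1.40 for those, of which 63.6% were higher, and of 5.39 for the 30 without it, of which 90% were higher. The 2 histones that were lower, Hist1h2bc at -1.43 ± 0.44 (SE) and Hist1h2ac at -2.42, had no hexamer in that window.

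The 10 replication-independent histone genes, whose messages carry poly(A) tails and are made through the whole cell cycle, had a median of -1.03, with 9 lower and 0 higher by edgeR. H3f3a stood at 33.6, 44.9 and 49.3 CPM against 78.8, 128 and 165 CPM, and H2afy at 30.3, 47.2 and 58.4 CPM against 60.1, 146 and 219 CPM. Neither pair of ranges overlapped. With total-count scaling the median of these 10 was -0.37 and 0 were called in either direction, while 34 replication-dependent histones were higher and 0 lower.

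**Figure D3:**
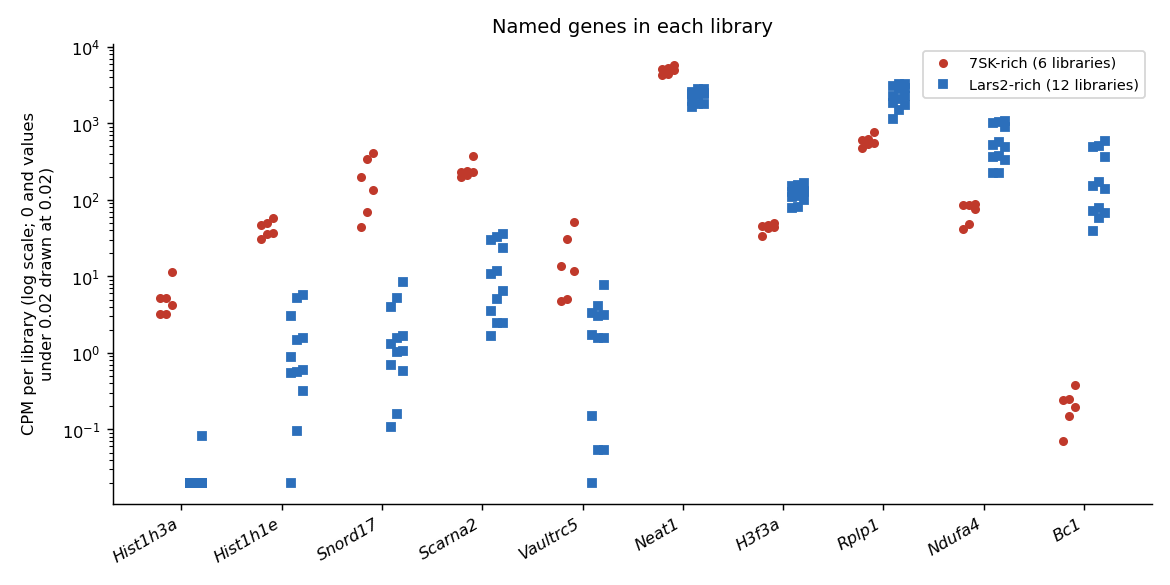
CPM of 10 genes in each library on a log axis, with circles for the 6 7SK-rich and squares for the 12 Lars2-rich libraries. Levels separate for all genes shown but Vaultrc5. The replication-dependent histone, snoRNA and scaRNA genes and Neat1 are higher in the 7SK-rich libraries, and H3f3a, Rplp1, Ndufa4 and Bc1 are lower.

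Long RNAs that stay in the nucleus differed less. Of 12 such lncRNAs tested, 5 were higher and 0 lower by edgeR, with a median of 0.77. Neat1, the scaffold of paraspeckles, stood at 4253, 5025 and 5826 CPM against 1663, 2441 and 2830 CPM, without overlap, a log2 difference of 1.13 ± 0.22 (SE). Tug1 was 1.01 ± 0.24 and Kcnq1ot1, the silencer of an imprinted domain, 0.79 ± 0.27 higher, with overlapping ranges. Malat1, the nuclear speckle RNA, stood at 8173, 11160 and 14490 CPM against 1926, 12800 and 27220 CPM, a log2 difference of 0.24 ± 0.42 (SE) that was not called (adjusted p = 0.669 by edgeR).

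Antisense, intronic and unconfirmed (TEC) transcripts were higher far more often than lower. Of 892 antisense genes tested, 424 were higher and 57 lower, with a median of 2.07. Of 1193 TEC genes, 600 were higher and 74 lower, with a median of 2.15 (1.31 without the filter), and of 149 sense-intronic genes 78 and 9, with a median of 1.95. Of 610 lincRNA genes, 109 were higher and 68 lower, with a median of 0.20, below that of all genes. The summed share of all antisense genes went the other way. It was 0.2338 to 0.3325% of gene counts in the 7SK-rich libraries against 0.4923 to 4.65% in the Lars2-rich ones, without overlap. Without Gm14236 and Gm15564, antisense genes took 0.231 to 0.323% of gene counts in the 7SK-rich libraries against 0.0529 to 0.211% in the Lars2-rich ones.

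These genes also differed by position. Of 935 long non-coding and TEC genes inside an intron of a protein-coding gene on the same strand, 505 were higher and 55 lower (median 2.46). Of 1266 over a protein-coding gene on the opposite strand, 596 were higher and 81 lower (median 1.98). Of 912 outside protein-coding genes, 153 were higher and 112 lower, and their median of 0.26 equalled that of all genes. Within TEC genes the medians were 2.56 in introns, 2.43 on the opposite strand and 0.72 outside. Within antisense genes the opposite strand had the highest median, 2.17, against 1.90 for the 14 in introns and 0.24 outside. LincRNA genes had a median of 2.33 on the opposite strand and 0.07 outside, but the 7 in introns had -0.37, with 1 higher and 2 lower. Whether position or class goes further with the difference was not tested. Because the counts ignore strand, reads from introns of the host gene and from the annotated gene cannot be told apart.

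**Figure D4:**
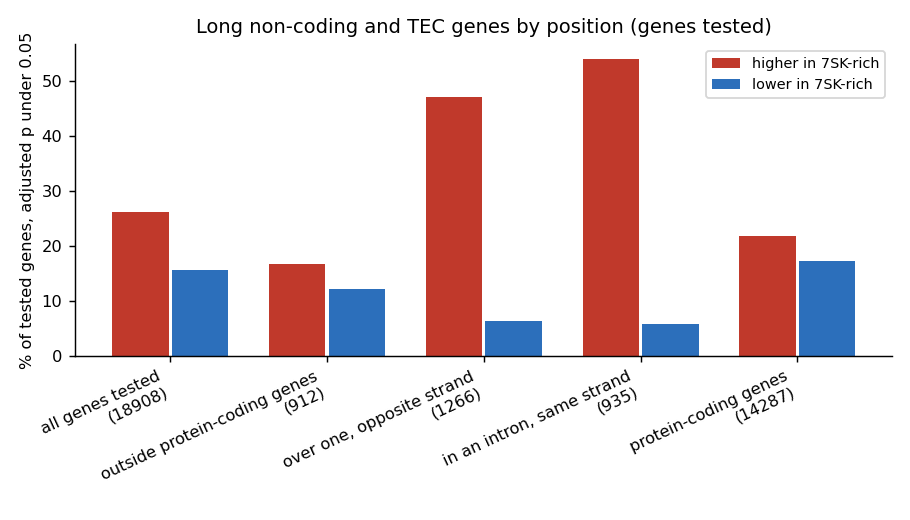
Share of tested genes (%) that were higher or lower in the 7SK-rich libraries at an adjusted p under 0.05, for long non-coding and TEC genes by position relative to protein-coding genes, beside all genes and protein-coding genes, with the number tested in parentheses. Genes in introns (54.0% higher) and on the opposite strand (47.1%) exceed those outside protein-coding genes (16.8%).

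Among 14287 protein-coding genes, 3121 were higher and 2470 lower, with a median of 0.13. The difference was larger for longer transcripts. In 5 bins of equal size, the median was -0.77 for transcripts of 144 to 1899 bases and then -0.15, 0.18, 0.39 and, for transcripts of at least 5205 bases, 0.73. In the shortest bin 6.88% were higher and 36.4% lower, and in the longest 44.6 and 6.46%. Spearman's rho across 14239 genes, which share the 18 libraries, was 0.385 with transcript length, 0.285 with the number of exons, 0.267 with the span of the gene and 0.0785 with GC content.

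Length and exon number are themselves related, and within a range of exon numbers the trend with length was still present. For genes with 1 exon, the median was -0.89 in the shortest and 0.47 in the longest bin. For genes with 11 or more exons it was -0.42 and 0.88. A poly(A) hexamer in the last 50 bases of the longest transcript made no such difference among protein-coding genes: the 10511 with it (73.8%) had a median of 0.13 and the 3724 without it 0.14. Among TEC genes those with a hexamer had a median of 1.47 and those without 2.44, and among antisense genes 1.88 and 2.30.

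**Figure D5:**
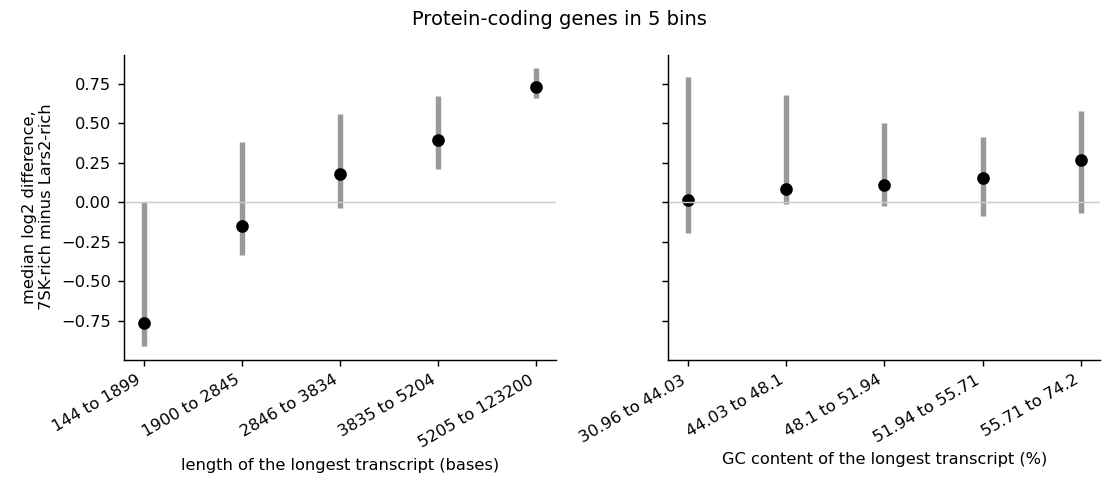
Median log2 difference between the kinds (points) for protein-coding genes in 5 bins of transcript length and 5 bins of GC content, with bars for the range of the 6 within-group medians. The median climbs from -0.77 to 0.73 with length and from 0.01 to 0.27 with GC content.

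Most ribosomal protein and respiratory chain genes tested were lower. Of 80 ribosomal protein genes tested, 59 were lower and 1 higher, with a median of -1.40. Rplp1 stood at 471, 583 and 763 CPM against 1127, 2276 and 3306 CPM, a log2 difference of -1.86 ± 0.27 (SE), and Rpl8 at 340, 388 and 468 CPM against 632, 1206 and 1630 CPM. Rplp0 was not called, at -0.29 ± 0.22 (SE; adjusted p = 0.299 by edgeR), and its difference was 0.36 with total-count scaling. Of 73 nuclear genes of the respiratory chain, 60 were lower and 1 higher, with a median of -1.81. Ndufa4, a cytochrome oxidase subunit, stood at 42.1, 80.8 and 89.8 CPM against 223, 508 and 1083 CPM, a log2 difference of -2.74 ± 0.29 (SE). Atp5g3, a subunit of the ATP synthase ring, was lower at -2.58 ± 0.30. The summed shares of gene counts overlapped. Ribosomal protein genes took 1.584 to 1.855% in the 7SK-rich against 0.4897 to 5.351% in the Lars2-rich libraries. Respiratory chain genes took 0.1866 to 0.349% against 0.08735 to 1.033%. The 7SK-rich share was above the Lars2-rich mean of its group in 2 of 6 groups for ribosomal protein and 1 of 6 for respiratory chain genes.

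Of 46 proteasome subunit genes, 33 were lower and 1 higher, with a median of -1.08, and Psmd8 stood at 54.1, 77.2 and 91.8 CPM against 130, 175 and 370 CPM. With total-count scaling 26 ribosomal protein, 42 respiratory chain and 8 proteasome genes were lower, and the medians were -0.72, -1.14 and -0.41. Of the 7 mitochondrially encoded messages tested, 6 were lower, with a median of -2.66. Of the 2 mitochondrial rRNA genes, mt-Rnr2 was higher (1.78 ± 0.55, SE) and mt-Rnr1 was not called (0.27 ± 0.45). Their summed share of gene counts was 2.44 to 6.65% in the 7SK-rich and 0.336 to 3.54% in the Lars2-rich libraries, with overlap.

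The 12 named genes with the lowest differences were Mir6236, Bc1, 5 copies of ribosomal protein genes (Rps6-ps3, Rps12-ps4, Rpl36a-ps2, Rpl9-ps6 and Rps15a-ps6), Gje1, Krt8, Fam221b, Hmgn5 and Cfd. Hmgn5 stood at 0.638, 1.58 and 1.84 CPM in the 7SK-rich libraries against 15.6, 37.6 and 75.9 CPM in the Lars2-rich ones, a log2 difference of -4.65 ± 0.34 (SE). Fam221b stood at 0, 0.0973 and 0.196 CPM against 1.42, 7.77 and 14.3 CPM. Krt8, a keratin of simple epithelia, had 3 counts over the 6 libraries and 324 over the 12, a ratio of 99.0 with a 95% counting interval from 33.6 to 483. Cfd, which encodes complement factor D and is known from adipocytes, had a log2 difference of -4.33 ± 0.68 (SE). The ribosomal copies are near-identical to their parent genes and their reads are uncertain.

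Differences between the kinds were compared across the UVB states. In unirradiated mice (3 7SK-rich and 5 Lars2-rich libraries) the medians were 4.71 for replication-dependent histones, 5.13 for scaRNA, 3.42 for snoRNA, -1.16 for ribosomal protein and -1.84 for respiratory chain genes. In irradiated mice (3 and 7 libraries) they were 4.62, 5.48, 2.94, -1.57 and -1.76. Other classes had medians farther apart: snRNA genes had 2.65 without UVB and 0.93 with it, lincRNA genes 0.83 and -0.02, and nuclear lncRNAs 0.56 with 0 called by edgeR and 1.19 with 5 higher. Of 36 microRNA genes tested without UVB, 1 was higher and 6 lower, with a median of 2.69. Of 45 tested with it, 17 were higher and 10 lower, with a median of 2.12. Among all genes but Rn7sk and Lars2, 581 of 16147 were higher and 624 lower without UVB. With UVB, 4079 of 17401 were higher and 3123 lower. The difference of a class between the states was not tested. Among 15127 genes tested in both states, 1052 were called in both, 1051 of them in the same direction, 140 only without UVB and 5598 only with it, from unequal numbers of libraries. The difference of the kind effect between the states was called for 0 of 18910 genes (0%) by edgeR, where 1770 had an unadjusted p under 0.05, and for 244 genes by DESeq2. It was called for 492 genes without a filter on low counts, for 199 genes without K14 OPN noTx 1, for 69 without OPN KO noTx 10 and for 1 without OPN KO noTx 8.

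Outside the genes, the alignment summary of the table differed as well. Reads with several alignments made up 12.1, 16.1 and 17.7% of all reads in the table for the 7SK-rich libraries and 18.9, 24.2 and 29.3% for the Lars2-rich ones. Reads that fell on more than 1 gene (ambiguous) were 2.51, 3.09 and 4.22% against 4.33, 6.90 and 13.9%. Neither pair of ranges overlapped. Reads outside any gene were 30.4, 36.1 and 40.8% against 20.8, 39.2 and 50.4%, with overlap.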

How the data were processed

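Counts of reads per gene for the 18 libraries were deposited by the authors as 1 table of raw whole numbers. Tools listed in the submitters' processing notes, with no role, are HTSeq 0.11.3, STAR 2.7.5a, Trim Galore 0.6.5 and bcl2fastq 2.18.0.12, and GRCm38 is the build listed. For the annotation and the counting mode, no source used here gives a name. The table holds 56246 genes, of which 55230 matched GENCODE M21 by identifier, and 5 summary lines, which stayed out of library sizes and tests.

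In R 4.3.3 with edgeR 4.0.16, the filter on low counts was filterByExpr (count of 10, total of 15), libraries were TMM-scaled, and 1 quasi-likelihood model with the 6 group means and the kind was fitted to all 18 libraries. Calls were two-sided, at an adjusted p (Benjamini-Hochberg) under 0.05. Standard errors come from the F statistic. CPM is per TMM-scaled size. A gene present in 1 kind alone can pass the filter through that kind, so counts hold for tested genes only. On simulated data at these sizes the fit was checked. Fits with DESeq2 1.42.0, other scalings and fewer libraries were alternatives. Ratios for genes with 1 to 3 counts in a kind carry exact 95% intervals that cover counting error only, since reads were not tied to single molecules.

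The members, gene lists and tests were chosen with earlier results of these data known. Named genes are Rn7sk and Lars2, and the 12 highest and 12 lowest differences among called genes that passed a rule. It asked for no overlap, no clone-type symbol, and both the absolute log2 difference and the mean log2 CPM at 1 or more. Up to 4 members of each list by mean level are named too. Chosen outside the rule were some of the 10 genes with the largest share of counts in each kind. Gm14236, mt-Rnr1, Krt1 and Krt5 were also chosen outside it. Rn7s2, Rprl2, Rprl3, Gm26464, Hist1h2ac, Spp1 and the sequences shown were chosen after their values were seen. No 2 libraries of a group were within sampling noise of each other.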

Additional observations from a re-analysis of the deposited data

Results flagged for a closer look

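Within OPN KO UVB, the 1 group of 4 libraries, OPN KO UVB 16 stood farther from the others than Dixon's 95% limit allows in 7 of the measures compared. It is the 7SK-rich library of that group, chosen by its Rn7sk and Lars2 counts, so these values restate the split. Its share of gene counts was 1.52% for Rn7sk (nearest other library 0.0316%), 23.0% for Gm26917 (1.52%), 0.699% for Neat1 (0.304%), 0.00705% for misc_RNA genes without Rn7sk (0.00185%), 0.0559% for scaRNA genes (0.00232%), 0.0485% for replication-dependent histones (0.0139%) and 0.290% for nuclear respiratory chain genes (0.919%).

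Among the 6 7SK-rich libraries, K14 OPN UVB 1 had the highest share of replication-dependent histones, 0.0870% against 0.0566% in the next library, and K14 OPN noTx 2 the highest share of ambiguous reads, 4.22% against 3.12%. These 2 do not restate the split. The limit was applied to 64 sets of values, and chance alone passes it in about 1 in 20.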

How the results depend on the processing

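Each of the 18 libraries was left out in turn, which gave 6111 to 8408 called genes (3748 to 5105 higher, 2289 to 3334 lower) and 0 to 199 genes for the difference by UVB. With the replicate block for the K14 OPN libraries that share the numbers 1 and 2, 7203 genes were called and 0 for the difference by UVB. Same-numbered libraries are of different kinds, and their deviations from the group means correlate at -0.451 and -0.578. The kind was not taken out of these deviations, so negative values follow from the split. Whether the numbers pair the samples is therefore not settled. Unirradiated libraries alone gave 1206 calls (582 higher, 624 lower), from fewer samples. Total-count scaling gave 1078 genes lower. The difference by UVB was called for 244 genes by DESeq2, 492 without a filter and 2 without WT noTx 10, K14 OPN noTx 11 and OPN KO noTx 9, libraries that stand apart in hair genes or complexity. The cause was not tested.

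Without the filter, which adds genes of few counts, class medians were 1.84 for misc_RNA, 1.81 for snoRNA, 2.75 for scaRNA, 1.14 for snRNA, 1.53 for microRNA, 4.11 for replication-dependent histone, 1.56 for antisense, 1.31 for TEC and 1.59 for sense-intronic genes. Total-count scaling, chosen for class medians after seeing the data, moved the median of all genes to 0.895 and those of protein-coding genes to 0.769, misc_RNA to 4.66, scaRNA to 5.41, snRNA to 2.38, replication-dependent histones to 5.33, replication-independent histones to -0.372, ribosomal protein genes to -0.724, respiratory chain genes to -1.14, antisense to 2.58, TEC to 2.74, sense-intronic to 2.56, lincRNA to 0.774, nuclear lncRNAs to 1.35 and proteasome genes to -0.414. Without the 3 libraries above, an alternative likewise added for class medians, sense-intronic genes had 2.26 and nuclear lncRNAs 1.08. With a mean log2 CPM of at least 3, rho was 0.548 with length and 0.431 with exon number.

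Of 96 named genes compared over all settings, Malat1 changed sign in unirradiated libraries (-0.502) and without K14 OPN UVB 1 (range over the libraries left out -0.147 to 0.444), and Rplp0 with total-count scaling (0.363). In 113 of 2686 comparisons a named gene kept its direction and lost its call. Of the class medians, that of lincRNA genes changed sign in irradiated libraries alone (-0.0233).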

Other observations

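The median of all genes was 0.26, with 26.2% of those tested higher and 15.7% lower. Of 329 zinc finger protein genes tested, which encode mostly DNA-binding proteins, 72 (21.9%) were higher in the 7SK-rich libraries and 17 (5.17%) lower. Their median log2 difference was 0.48. The share that was higher lay near the 21.8% of protein-coding genes and below that of all genes. Of 14 SR proteins and CLK kinases, which act in splicing, 3 were higher and 4 lower, with a median of -0.32. Of 14 immediate early genes, whose messages are short-lived, 1 was higher and 6 lower, with a median of -0.99. Junb, a subunit of the AP-1 factor, stood at -1.50, Zfp36, which speeds the decay of AU-rich messages, at -1.57, and Ier3 at -1.96.

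Processed pseudogenes, copies of messages without introns, were called in both directions. Of 855 tested, 311 were higher and 169 lower, with a median of 0.59, and their reads can also align to the parent genes. Runs of at least 8 A in the gene sequence were found in 1 of 148 short RNA genes that were higher (0.676%), 2 of 88 not called (2.27%) and 3 of 37 lower (8.11%), counts too small to rank.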
